A study of Mus musculus with 9 samples.

Results

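The fibril-forming collagen genes encode the chains of collagen types I, II, III, V and XI, and 9 of them were followed here across a knockdown experiment in cultured mouse cardiac fibroblasts. The genes were Col1a1, Col1a2, Col2a1, Col3a1, Col5a1, Col5a2, Col5a3, Col11a1 and Col11a2, found in the deposited count table by their Ensembl identifiers, and they were 9 of the 38924 genes listed there. All 9 passed the filter on low counts in each comparison. The fibroblasts came from adult RosaCas9-EGFP mice on a C57BL/6 background, 8 to 10 weeks old. Their cells make Cas9, the enzyme that cuts DNA where a guide RNA leads it, and a green reporter protein. In all groups the cells were cultured for 3 days, sorted as CD45-CD31-CD90+, replated, and given guides in a lipid reagent 6 days later at 80 to 90% confluency. Control cells received scrambled guides, Gata4 KD cells received 2 guides against Gata4 and Tbx20 KD cells received 2 guides against Tbx20, with 3 libraries per group, lettered a, b and c. Gata4 and Tbx20 are transcription factors needed for heart formation, and the experiment asked what each contributes to the transcriptome of the adult heart fibroblast. A dish holds cut and uncut cells together. The study calls the 3 libraries of a group biological replicates, but the sources used here do not say whether they came from separate animals or cultures, so p-values measure the spread between these samples, whatever its source.

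Fibrillar collagens are the rope-like proteins that give tissue its tensile strength, and in the heart they are made mainly by fibroblasts. Type I collagen, built from the chains of Col1a1 and Col1a2, and type III, built from Col3a1 alone, form the bulk of the cardiac matrix, while the type V chains start new fibrils and set their width. Type II (Col2a1) and type XI (Col11a1, Col11a2) are best known from cartilage, where type XI has the role that type V has in other tissues.

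The guides are shown because they define the groups. Each is a 20-base target followed by the 3-base motif that Cas9 requires, given in capitals, and all 4 were located in coding sequence of the mouse build GRCm38.
Gata4_sgRNA1: cagagagtgtgtcaattgtgGGG
Gata4_sgRNA3: gcaggactgggctgtcgaagGGG
Tbx20_sgRNA2: caaattccatgaactgggcaCGG
Tbx20_sgRNA3: gagctgctcgccagtaaaggGGG
The Gata4 targets lie at chr14:63204711-63204730 in exon 3 and at chr14:63240581-63240600 in exon 2. The Tbx20 targets lie at chr9:24770708-24770727 in exon 2 and at chr9:24765732-24765751 in exon 4. Gata4_sgRNA1 and Tbx20_sgRNA2 read along the coding strand, and the others along the template strand.

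What makes the 9 genes a family is a long uninterrupted stretch in which glycine codons recur at steps of 3, the residue small enough to sit inside the collagen helix. In the reference transcripts this run spanned 337 triplets in Col5a3 to 344 in Col3a1. It was 216 triplets in Col24a1 and 217 in Col27a1, the other fibrillar collagen genes, and no more than 113 in the 9 fibril-associated collagen genes examined. The first 54 coding bases of the run are shown for 4 genes whose levels are compared most closely below. Capitals mark the glycine codon that opens each triplet, and glycine codons at other positions are in lower case.
Col1a1: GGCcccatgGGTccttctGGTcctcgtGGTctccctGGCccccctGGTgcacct
Col2a1: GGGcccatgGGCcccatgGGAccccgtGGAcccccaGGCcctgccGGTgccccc
Col3a1: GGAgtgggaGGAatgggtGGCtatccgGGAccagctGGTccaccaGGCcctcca
Col5a1: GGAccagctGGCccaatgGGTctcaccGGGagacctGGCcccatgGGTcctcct
Each stretch is spliced from neighbouring exons, on the plus strand of chr11:94939451-94939741 for Col1a1 (exons 6 and 7), chr1:45323762-45325377 for Col3a1 (exons 5 and 6) and chr2:27964080-27965259 for Col5a1 (exons 14 and 15), and on the minus strand of chr15:97996648-97997320 for Col2a1 (exons 8 and 9). Of the 54 bases, 38 in Col2a1, 30 in Col5a1 and 25 in Col3a1 were the same as in Col1a1. Despite the shared pattern, reads of the genes could be told apart. None of the 75-base windows of the other 8 genes occurred in another gene, and 0.672% of those of Col3a1 did. The genes lie on 8 chromosomes, and only Col3a1 (ENSMUSG00000026043, chr1:45311538-45349706, plus strand) and Col5a2 (ENSMUSG00000026042, chr1:45374321-45503282, minus strand) are neighbours. Col1a1 (ENSMUSG00000001506) spans chr11:94936224-94953042 on the plus strand and Col2a1 (ENSMUSG00000022483) chr15:97975602-98004695 on the minus strand. All exons lying inside the run were multiples of 9 bases long in each of the 9 genes, and 21 (Col1a1) to 31 (Col5a3, Col11a1, Col11a2) of them were exactly 54 bases.

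Libraries held 31214828 to 41950397 counts, and levels are given as CPM (read counts scaled to library size, with TMM factors over all 9 libraries). Gata4 was at 164, 156 and 166 CPM in control, 53.7, 47.2 and 65.2 CPM in Gata4 KD, and 178, 192 and 199 CPM in Tbx20 KD. Tbx20 was at 1001, 1288 and 714 CPM in control, 321, 427 and 429 CPM in Tbx20 KD, and 669.8, 518 and 904 CPM in Gata4 KD. Each target was thus lower in all 3 libraries given its guides than in all controls. Gata4 passed the adjusted threshold (log2 fold change -1.55, SE 0.12, quasi-likelihood adjusted p = 0.00272), whereas Tbx20 did not (-1.35, SE 0.21, quasi-likelihood adjusted p = 0.748), and the Tbx20 KD libraries are named by their label for that reason. Gata4 KD replicate c stood nearer to control than replicates a and b did for most of the genes below, and values without it are given where it changes a call.

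The type I and type III genes dominated in these fibroblasts, and the levels fell into tiers that spanned more than 3 orders of magnitude. Per kilobase of reference transcript, control levels were 722 CPM for Col1a2, 674 CPM for Col1a1 and 569 CPM for Col3a1. The ranges of Col1a1 (666 to 680.1) and Col1a2 (649.7 to 801) overlapped, and so did those of Col3a1 (480.0 to 652) and Col1a2. Col5a2 (301 CPM per kilobase) and Col5a1 (123 CPM per kilobase) came next, each clear of its neighbours in all 3 control libraries. Col11a1 (15.96 CPM per kilobase) and Col2a1 (14.2 CPM per kilobase) overlapped each other. Col5a3, the third type V chain, was at 0.936 CPM per kilobase, and Col11a2 was the lowest of the 9 at 0.258 CPM per kilobase, from 39 to 57 counts in each of the 9 libraries. Col27a1 (1.32 CPM per kilobase) and Col24a1 (0.121 CPM per kilobase) were of the same low order.

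**Figure D1:**
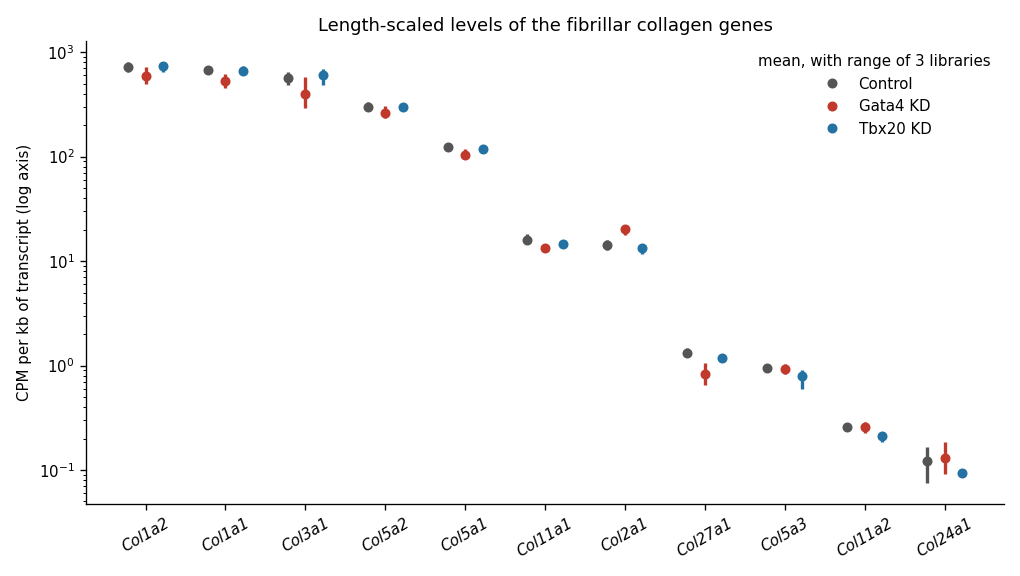
Levels of the 9 fibril-forming collagen genes and of Col24a1 and Col27a1 in CPM per kilobase of reference transcript, on a log axis. Points are means and bars the range of 3 libraries per group, ordered by the control mean. In Gata4 KD, Col2a1 (17.9 to 21.5) lies above Col11a1 (12.7 to 14.2), whereas their ranges overlap in the other groups.

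The 9 genes together took 1.42% ± 0.0790 of all counts in control (SD, n = 3), 1.13% ± 0.237 in Gata4 KD and 1.45% ± 0.158 in Tbx20 KD. In Gata4 KD the libraries were at 1.04%, 0.946% and 1.39%, and replicate c lay within the control range of 1.35 to 1.51%. Fewer cells of a type and less RNA per cell cannot be told apart in such bulk samples. Of the counts of these genes, Col1a1, Col1a2 and Col3a1 made up 76.7 to 78.1% in control and 73.1 to 76.9% in Gata4 KD.

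Col1a1, the pro-alpha1 chain of type I collagen, was the steadiest of the 9 among controls, at 4033, 4006 and 3949 CPM. It was at 3043, 2698 and 3686 CPM in Gata4 KD and at 3598, 3857 and 4336 CPM in Tbx20 KD. All Gata4 KD libraries were therefore below all controls, while the Tbx20 KD libraries lay on both sides of them. The Gata4 KD mean was 0.786 of the control mean, with a log2 fold change of -0.35 (SE 0.12, unadjusted p = 0.018, quasi-likelihood adjusted p = 0.423), which did not pass the threshold over all genes.

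Its partner Col1a2, the pro-alpha2 chain, was at 3821, 4281 and 3475 CPM in control, 3028, 2643 and 3836 CPM in Gata4 KD, and 3443, 4015 and 4341 CPM in Tbx20 KD. Replicate c of Gata4 KD exceeded 2 of the controls, so the groups overlapped (log2 fold change -0.29, SE 0.14, quasi-likelihood adjusted p = 0.669). In the protein 2 pro-alpha1 chains join 1 pro-alpha2 chain, and the counts of the transcripts were close to equal: Col1a1 per Col1a2 was 1.04 ± 0.101 in control, 0.995 ± 0.0311 in Gata4 KD and 1.001 ± 0.0421 in Tbx20 KD (SD, n = 3). The 3 groups overlapped in this ratio.

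Col3a1, the only chain of type III collagen, varied most among the Gata4 KD libraries. It was at 3198, 3628 and 2671 CPM in control, at 1837, 1622 and 3188 CPM in Gata4 KD, and at 2698, 3538 and 3833 CPM in Tbx20 KD. Replicates a and b of Gata4 KD were below every other library, and replicate c was at the control mean. The mean of a and b was 0.546 of the control mean and that of c was 1.01, so the log2 fold change of -0.51 had a standard error of 0.24 and did not pass (quasi-likelihood adjusted p = 0.640). The coefficient of variation was 38.3% in Gata4 KD against 15.1% in control. Col3a1 per Col1a1 was 0.604, 0.601 and 0.865 in the Gata4 KD libraries, and replicate c fell within the control range of 0.676 to 0.906.

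**Figure D2:**
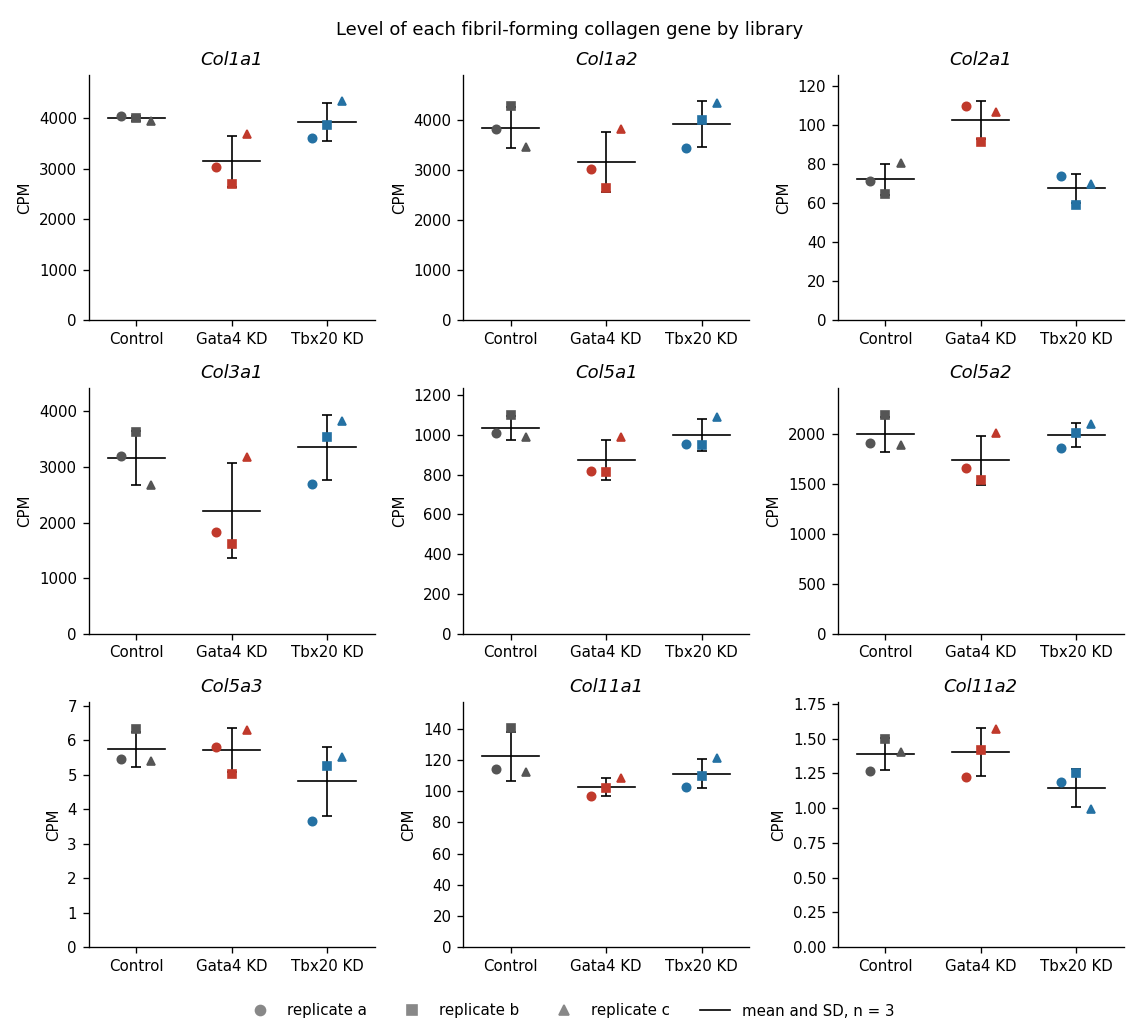
CPM of the 9 fibril-forming collagen genes in each of the 9 libraries, 1 panel per gene with its axis from 0. Symbols mark replicates a, b and c, and bars give the mean and SD of 3 libraries per group. Col2a1 is higher in all 3 Gata4 KD libraries (91.5 to 109.6) than in all others (59.2 to 80.4), and Col3a1 in Gata4 KD splits into replicates a and b (1837 and 1622) and replicate c (3188).

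The type V genes had smaller differences. Col5a1 was at 1009, 1102 and 989 CPM in control, 820.1, 814 and 987 CPM in Gata4 KD, and 954, 952 and 1093 CPM in Tbx20 KD. Its Gata4 KD libraries were all below its controls, replicate c by the narrow margin of 987 against 989, and the log2 fold change was -0.24 (SE 0.10, unadjusted p = 0.0399, quasi-likelihood adjusted p = 0.550). Col5a2, whose chain joins that of Col5a1 in the common form of type V collagen, was at 1904, 2191 and 1884 CPM in control and 1656, 1542 and 2010.5 CPM in Gata4 KD, with overlap (log2 fold change -0.20, SE 0.12). Col5a1 per Col5a2 was 0.519 ± 0.0143, 0.505 ± 0.0204 and 0.503 ± 0.0247 in control, Gata4 KD and Tbx20 KD (SD, n = 3), again with overlap. Col5a3, found in a minor form of type V, was at 5.41 to 6.33 CPM in control, 5.03 to 6.30 CPM in Gata4 KD and 3.65 to 5.51 CPM in Tbx20 KD, and its log2 fold change in Gata4 KD was -0.01 (SE 0.14). Col5a3 per 1000 counts of Col5a1 was higher in all 3 Gata4 KD libraries (6.18 to 7.07) than in all controls (5.40 to 5.74).

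Col2a1, the only chain of type II collagen, had its highest values in Gata4 KD. It was at 71.5, 64.8 and 80.4 CPM in control, 109.6, 91.5 and 107 CPM in Gata4 KD, and 73.8, 59.2 and 69.7 CPM in Tbx20 KD. Every Gata4 KD library, replicate c included, was above every library of the other groups, on 3294 to 3879 counts. Against control the Gata4 KD mean was 1.42 times as high, with a log2 fold change of 0.50 (SE 0.11, unadjusted p = 0.00187), and this did not pass over all genes by the quasi-likelihood test (adjusted p = 0.159), although it did by DESeq2 (adjusted p = 0.00430).

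The type XI genes did not follow Col2a1. Col11a1 was at 114, 140.5 and 112 CPM in control, 97.2, 102 and 109 CPM in Gata4 KD, and 103, 109.7 and 121 CPM in Tbx20 KD. All its Gata4 KD libraries were below its controls, with a log2 fold change of -0.26 (SE 0.10, unadjusted p = 0.0328, quasi-likelihood adjusted p = 0.514). Col11a2 was at 1.27 to 1.497 CPM in control and 1.22 to 1.57 CPM in Gata4 KD, and its log2 fold change was 0.01 (SE 0.21). Per kilobase of transcript, Col2a1 was above Col11a1 in every Gata4 KD library, while the 2 genes overlapped in control and in Tbx20 KD. Per kilobase of coding sequence, Col11a1 (20.7 to 26.0) was above Col2a1 (14.5 to 18.0) in every control and Col2a1 (20.5 to 24.6) above Col11a1 (18.0 to 20.1) in every Gata4 KD library.

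The first comparison asked what knockdown of Gata4 did to the whole set. Against control, 7 of the 9 genes had a log2 fold change below 0 and 2 above, beside 54.1% of all 14468 genes tested below 0. The median over the 9 genes was -0.24, and over all genes it was -0.02. None of the 9 passed an adjusted p of 0.05 (quasi-likelihood test), beside 0.38% of all genes. An unadjusted quasi-likelihood p under 0.05 was given for 4 of them (Col1a1, Col2a1, Col5a1, Col11a1), beside 8.54% of all genes. DESeq2 called 1, Col2a1, beside 1.89% of all genes, and limma-voom called none, beside 0.332%. In 4 of the 9 the groups did not overlap, 3 lower (Col1a1, Col5a1, Col11a1) and 1 higher (Col2a1), beside 14% of all genes, 8.05% lower and 5.99% higher. The other 5 genes overlapped between the groups.

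**Figure D3:**
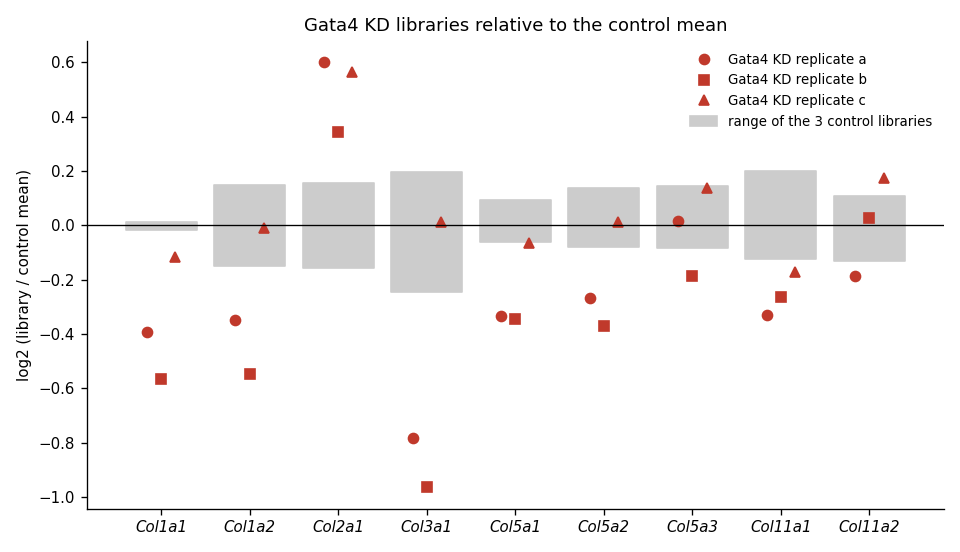
Each Gata4 KD library relative to the control mean, as log2 of the CPM ratio, for the 9 genes. Grey boxes span the 3 control libraries. Replicates a and b of Col1a1, Col1a2, Col3a1, Col5a1, Col5a2 and Col11a1 lie under the box, replicate c lies inside or nearer to it, and all replicates of Col2a1 lie above it.

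Gata4 KD replicate c differed from a and b by a different amount for each gene. Its CPM over the mean of a and b was 1.84 for Col3a1, 1.35 for Col1a2, 1.28 for Col1a1, 1.26 for Col5a2 and 1.21 for Col5a1, but 1.09 for Col11a1 and 1.06 for Col2a1. Without replicate c the log2 fold change of Col3a1 against control was -0.85 and its adjusted p 0.068, and none of the 9 genes passed the quasi-likelihood test. Gata4 itself was at 65.2 CPM in replicate c and at 53.7 and 47.2 CPM in a and b.

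The second comparison asked the same of Tbx20 and used the same controls. In Tbx20 KD, 7 of the 9 genes had a log2 fold change below 0, beside 50.7% of all 14547 genes tested, with a median of -0.04 beside 0.00 over all genes, and none passed the quasi-likelihood threshold, where 0.00687% of all genes, that is 1 gene, did. No unadjusted p was under 0.05, where 2.69% of all genes were. DESeq2 and limma-voom called none of the 9, beside 0.0688% and 0.00687% of all genes. The values furthest from 0 were those of Col11a2 (-0.28, SE 0.20) and Col5a3 (-0.25, SE 0.17), the 2 genes with the fewest counts. For the abundant genes the log2 fold changes were -0.02 (SE 0.09) for Col1a1, 0.03 (SE 0.11) for Col1a2 and 0.09 (SE 0.15) for Col3a1. The groups overlapped in 8 of the 9 genes, and Col11a2, at 1.19, 1.26 and 0.993 CPM against a lowest control of 1.27, was the exception, lower by a narrow margin, beside 6.96% of all genes without overlap and 3.78% without overlap and lower. With library size alone as the scale Col11a2 overlapped too.

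The knockdowns were then compared with each other, which tests whether their levels differ and uses no control library. Col2a1 was the 1 gene of the 9 that passed, higher in Gata4 KD with a log2 difference of 0.61 (SE 0.10, quasi-likelihood adjusted p = 0.0416), where 1.44% of all genes passed and 0.815% passed as higher. DESeq2 and limma-voom also called Col2a1 alone of the 9, beside 5.7% and 1.35% of all genes. All 3 Gata4 KD libraries (91.5 to 109.6 CPM) were above all 3 Tbx20 KD libraries (59.2 to 73.8 CPM), and it was the only one of the 9 whose groups did not overlap, beside 23.1% of all genes without overlap and 11.4% without overlap and higher. Leaving out any of the 5 libraries other than Gata4 KD replicate c took the adjusted p to between 0.0545 and 0.171, above the threshold. Col3a1 (-0.59, SE 0.26, quasi-likelihood adjusted p = 0.307) and Col1a1 (-0.32, SE 0.13, quasi-likelihood adjusted p = 0.267) had lower means in Gata4 KD without passing. In all 6 of the 9 genes had a log2 difference below 0, beside 51.7% of all genes. Of the 9, Col1a1 and Col2a1 had an unadjusted p under 0.05, beside 16.7% of all genes. Without Gata4 KD replicate c, 3 of the 9 passed, namely Col2a1 (adjusted p = 0.0287), Col3a1 (-0.96, adjusted p = 0.0175) and Col1a1 (-0.46, adjusted p = 0.0449), under the quasi-likelihood test, which then assumes that 2 libraries vary like the other 3.

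**Figure D4:**
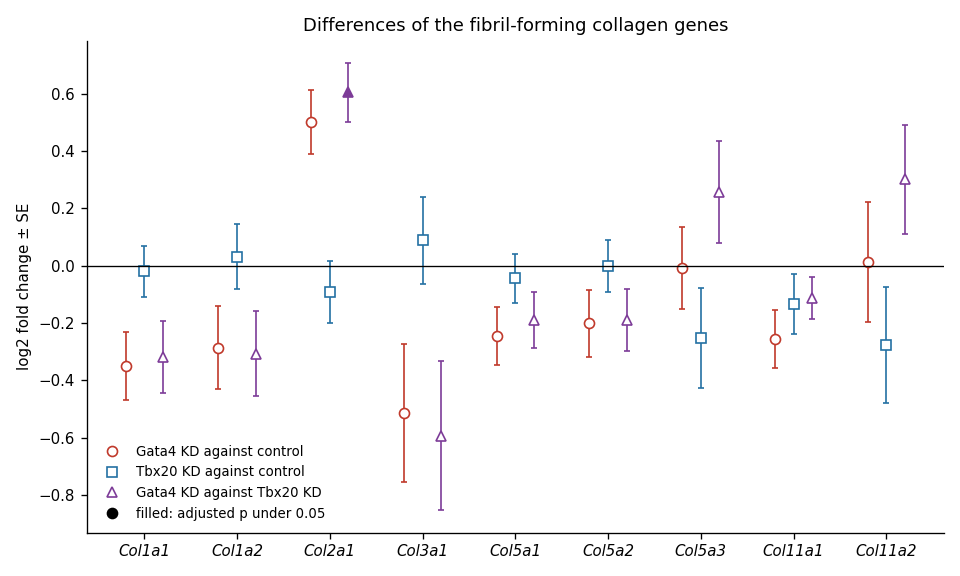
Log2 fold change with its standard error for the 9 genes in the 3 comparisons, 3 libraries per group. Filled symbols passed an adjusted p of 0.05 by the quasi-likelihood test, and Col2a1 in Gata4 KD against Tbx20 KD (0.61, SE 0.10) is the only filled one.

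Ratios within a library do not depend on how libraries are scaled. Col2a1 per 1000 counts of Col1a1 was 17.7, 16.2 and 20.4 in control, 36.0, 33.9 and 29.0 in Gata4 KD, and 20.5, 15.3 and 16.1 in Tbx20 KD. The Gata4 KD libraries were above all 6 others, and the mean was 1.82 times that of control and 1.90 times that of Tbx20 KD. Between control and Gata4 KD, Col5a1 per Col1a1 overlapped (0.259 ± 0.0144 and 0.280 ± 0.0192, SD, n = 3). So did Col11a1 per 1000 counts of Col1a1 (30.6 ± 3.86 and 33.1 ± 4.23). Against Tbx20 KD, however, both ratios were higher in all 3 Gata4 KD libraries, with means 1.10 and 1.17 times as high. With 3 against 3 libraries no exact permutation test of such a ratio can go below p = 0.1, so none was run.

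**Figure D5:**
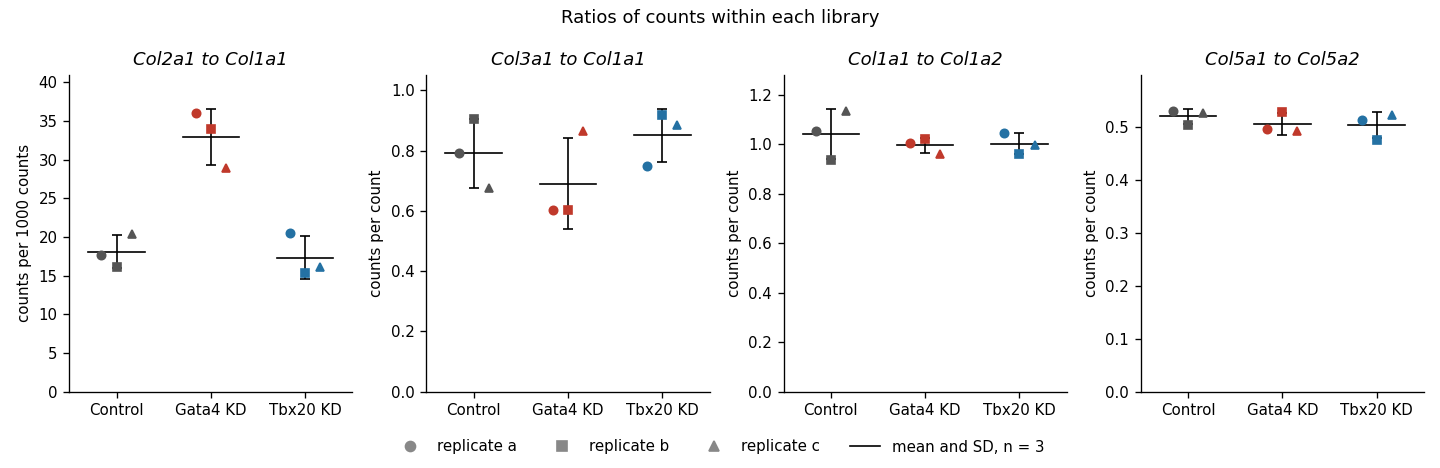
Ratios of counts within each library for 4 pairs of genes, with axes from 0, symbols for replicates a, b and c, and bars for the mean and SD of 3 libraries. Col2a1 per 1000 counts of Col1a1 is higher in Gata4 KD (29.0 to 36.0) than in the other groups (15.3 to 20.5), and the ratios of Col3a1 to Col1a1, Col1a1 to Col1a2 and Col5a1 to Col5a2 overlap.

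Across the 9 libraries the abundant chains varied together. Pearson's r of log2 CPM lay between 0.906 and 0.987 for the pairs among Col1a1, Col1a2, Col3a1, Col5a1 and Col5a2, the highest being Col1a2 with Col3a1. It lay between -0.667 and -0.590 for Col2a1 with each of these 5. The points share libraries, groups and scaling, and the values describe only these 9 libraries. Among 9171 other genes with a mean of at least 10 CPM, those most like Col1a1 were St3gal1 (r = 0.986), C1qtnf6 (0.982) and Copz2 (0.978). Those most like Col2a1 were Nectin1 (0.970), Kansl2 (0.966) and Crybg3 (0.963), of which Nectin1 was higher in Gata4 KD than in Tbx20 KD (log2 difference 0.40, SE 0.06, quasi-likelihood adjusted p = 0.0258). That call was lost without any library other than Gata4 KD replicate c (adjusted p up to 0.141). Nectin1 was picked because it followed Col2a1 in these same libraries, so its call is not independent of that of Col2a1.

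The other fibrillar collagen genes were low. Col27a1, expressed mainly in cartilage, was at 9.63, 9.35 and 11.3 CPM in control, 4.95, 6.03 and 8.01 CPM in Gata4 KD, and 8.70, 9.55 and 8.87 CPM in Tbx20 KD. Its Gata4 KD libraries were below all others, with a log2 fold change against control of -0.67 (SE 0.18, unadjusted p = 0.00604, quasi-likelihood adjusted p = 0.263). Col24a1 was at 0.539 to 1.32 CPM over the 9 libraries and overlapped between groups.

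Among genes that make, fold, trim and crosslink the chains, 1 passed the quasi-likelihood test. Of 22 genes for procollagen chaperones, hydroxylases and secretion, 21 were tested in Gata4 KD against control. Creb3l1 alone of them passed, lower, beside 0.38% of all genes. Creb3l1 encodes a membrane-bound transcription factor known from bone, where it drives Col1a1 and the secretion of matrix. It was at 164, 159 and 183 CPM in control, 111, 99.2 and 115 CPM in Gata4 KD, and 182, 178 and 185 CPM in Tbx20 KD. All Gata4 KD libraries were below all others (log2 fold change -0.64, SE 0.10, quasi-likelihood adjusted p = 0.0449 against control, and -0.74, SE 0.07, adjusted p = 0.00522 against Tbx20 KD). The call against control was lost under 6 of 13 alternatives, namely the replicate block and leaving out any library but control replicate b, its adjusted p reaching 0.259 when Gata4 KD replicate a was left out. The call against Tbx20 KD was lost under 1, without Gata4 KD replicate a (0.0525). In that list 17 of 21 genes had a log2 fold change below 0 against control, where 54.1% of all genes did. The median was -0.09, beside -0.02 over all genes. The unadjusted quasi-likelihood p was below 0.05 for 3 of the 21, beside 8.54% of all genes. DESeq2 called Creb3l1 alone of them there, beside 1.89% of all genes. Between the knockdowns it called Creb3l1 and Serpinh1, beside 5.7%. The list's most abundant members were Serpinh1, the collagen chaperone HSP47, at -0.23 (SE 0.08, quasi-likelihood adjusted p = 0.444) against control, and P4hb, a subunit of prolyl 4-hydroxylase, at -0.09 (SE 0.08). Serpinh1 was lower in all Gata4 KD libraries (1690 to 1813 CPM) than in all control (1965 to 2163 CPM) and Tbx20 KD libraries (1971 to 2112 CPM). None of the 7 tested genes for propeptide proteinases and their enhancers and none of the 6 for crosslinking enzymes passed in any comparison by the quasi-likelihood test, although 3 and 2 of them had an unadjusted p under 0.05 in Gata4 KD against control, beside 8.54% of all genes. DESeq2 called 1 of each there, Pcolce2 and Loxl2, beside 1.89% of all genes, and limma-voom called none. In those lists Pcolce, which enhances C-propeptide removal, was at -0.13 (SE 0.14) and Bmp1, which does the cutting, at -0.02 (SE 0.12). Lox was at -0.13 (SE 0.17) and Loxl2, a related crosslinking oxidase, at -0.56 (SE 0.16, quasi-likelihood adjusted p = 0.279).

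Among fibril-associated collagens and collagen receptors, the quasi-likelihood test made calls between the knockdowns and none against control. Col12a1, a fibril-associated collagen, was at 414, 327 and 362 CPM in control, 535, 704 and 495 CPM in Gata4 KD, and 338, 256 and 299.7 CPM in Tbx20 KD. It was higher in Gata4 KD than in Tbx20 KD (log2 difference 0.96, SE 0.15, quasi-likelihood adjusted p = 0.0300), a call lost with the replicate block and without a or b of the Gata4 KD replicates and b or c of the Tbx20 KD ones (adjusted p up to 0.155). It did not pass against control by the quasi-likelihood test (0.65, SE 0.14, adjusted p = 0.159), although it did by DESeq2. It was the 1 of 6 tested fibril-associated collagens that passed between the knockdowns, beside 1.44% of all genes. Col16a1, the next in abundance, was at -0.28 (SE 0.19) in Gata4 KD against control. Of 8 tested collagen receptors 1 passed the quasi-likelihood test between the knockdowns, beside 1.44% of all genes. This was Ddr1, a receptor tyrosine kinase, lower in Gata4 KD than in Tbx20 KD (-0.50, SE 0.09, adjusted p = 0.0430). Its call was lost with the block and without any library but Gata4 KD replicate c (adjusted p up to 0.203). Between the knockdowns limma-voom called 2 receptors (Ddr1, Itgb1) and DESeq2 3 (Ddr1, Itga2, Itgb1), beside 1.35% and 5.7% of all genes. By the quasi-likelihood test Itgb1, the integrin beta1 subunit, was at 0.30 (SE 0.06, adjusted p = 0.0527) and Itga2, its collagen-binding alpha2 partner, at 1.14 (SE 0.22, adjusted p = 0.0619), with all Gata4 KD libraries above all Tbx20 KD libraries for both. None of the 8 passed the quasi-likelihood test against control, where 4 had an unadjusted p under 0.05 in Gata4 KD, beside 8.54% of all genes. DESeq2 called 2 of them there (Ddr1 and Itga2), beside 1.89% of all genes, and limma-voom none. Against control Itgb1 was at 0.30 (SE 0.11) and Ddr2 at 0.06 (SE 0.09).

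The collagenase Mmp13, which cleaves native fibrils, was the 1 gene called in Tbx20 KD against control. It was at 5.42, 4.18 and 4.63 CPM in control, 4.86, 3.11 and 3.08 CPM in Gata4 KD, and 18.0, 18.6 and 17.5 CPM in Tbx20 KD. The Tbx20 KD libraries were above all others (log2 fold change 1.93, SE 0.12, quasi-likelihood adjusted p = 0.00166), and the call held under all 13 alternatives. The other 10 tested genes for collagen degradation and uptake did not pass in that comparison, Timp2 and Timp3, inhibitors of matrix metalloproteinases, among them. Of the 11 tested, 2 had an unadjusted p under 0.05, Mmp13 and Mmp8, beside 2.69% of all genes. Mmp8 was at 1.06 (SE 0.29, quasi-likelihood unadjusted p = 0.00649), with all Tbx20 KD libraries above all controls. Between the knockdowns Mmp13 was lower in Gata4 KD (-2.29, SE 0.17, quasi-likelihood adjusted p = 0.00176). None of 13 fibril-regulating matrix genes passed in any comparison by the quasi-likelihood test. An unadjusted p under 0.05 was given for 1 in Gata4 KD and 1 in Tbx20 KD against control, beside 8.54% and 2.69% of all genes. Between the knockdowns it was given for 3, beside 16.7%. DESeq2 called 1 in all, Tnxb, between the knockdowns, beside 5.7% of all genes. Of this list Fn1 (fibronectin, 0.23, SE 0.12) and Sparc (-0.14, SE 0.11) are given for Gata4 KD against control.

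Of 18 myofibroblast and TGF-beta response genes, none passed the quasi-likelihood test in either knockdown against control. In Gata4 KD 5 had an unadjusted p under 0.05, beside 8.54% of all genes, and DESeq2 called 4 (Cnn1, Cthrc1, Il11, Tnc), beside 1.89% of all genes. Of these 4, Cthrc1 (-0.64, SE 0.18) was lower in all Gata4 KD libraries than in all controls. The others, Cnn1 (0.67, SE 0.16), Il11 (1.86, SE 0.30, quasi-likelihood adjusted p = 0.0519) and Tnc (0.62, SE 0.11), were higher in all. Tagln, the other gene with an unadjusted p under 0.05, was higher too (0.29, SE 0.11). In Tbx20 KD 1 had an unadjusted p under 0.05, beside 2.69% of all genes, and DESeq2 called none. Against Tbx20 KD, Il11, a cytokine known to act on fibroblasts (log2 difference 2.68, SE 0.31, quasi-likelihood adjusted p = 0.0115), and Tnc, a matrix glycoprotein of remodelling tissue (0.87, SE 0.12, quasi-likelihood adjusted p = 0.0242), were higher in Gata4 KD. These were the 2 of the 18 that passed there, beside 1.44% of all genes. Both calls were lost without replicate a of Gata4 KD and without b or c of Tbx20 KD, and that of Tnc also without b of Gata4 KD and with the block, the adjusted p rising to 0.0911 (Il11) and 0.121 (Tnc). Tnc was at 2080.1, 1773 and 2118 CPM in control, 3291, 3245 and 2662 CPM in Gata4 KD, and 1832, 1405 and 1789.7 CPM in Tbx20 KD, so that it was above both groups in every Gata4 KD library.

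Genes of cartilage were examined because Col2a1 is a cartilage gene. None of the 10 tested of 21 passed in Gata4 KD against control by the quasi-likelihood test, 2 had an unadjusted p under 0.05, beside 8.54% of all genes, and DESeq2 and limma-voom called none. Sox9, the transcription factor that drives Col2a1 in cartilage, was at 121, 192 and 149 CPM in control and 128, 122 and 165 CPM in Gata4 KD, with overlap (log2 fold change -0.15, SE 0.17). The 2 with an unadjusted p under 0.05 were Trps1 and Runx2. Trps1, a regulator of chondrocyte differentiation, was at 0.34 (SE 0.14, quasi-likelihood adjusted p = 0.561). Runx2 was at 0.35 (SE 0.11, quasi-likelihood adjusted p = 0.362), with all Gata4 KD libraries above all others. Between the knockdowns none of the 9 tested genes passed by any of the 3 tests. There 3 had an unadjusted quasi-likelihood p under 0.05, beside 16.7% of all genes. All 8 chondrocyte markers were under 1 CPM in every library. Their summed level was 0.647 to 0.735 CPM in control, 0.688 to 0.834 CPM in Gata4 KD and 0.640 to 0.722 CPM in Tbx20 KD, with Snorc at 0 in all libraries.

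The labelled cell type was checked against 8 fibroblast markers, all of which were detected. They summed to 5043 to 5188 CPM in control, 4595 to 4979 CPM in Gata4 KD and 4962 to 5223 CPM in Tbx20 KD, and Vim was the most abundant. None of the 8 passed against control, where 4 had an unadjusted p under 0.05 in Gata4 KD, beside 8.54% of all genes, and DESeq2 called none. Of these 4, Tcf21 (-0.61, SE 0.19) and Vim (-0.20, SE 0.08) were lower in all Gata4 KD libraries than in all controls. S100a4 (-0.36, SE 0.14) and Pdgfra (0.37, SE 0.14) overlapped. Between the knockdowns DESeq2 called 3 of the 8 (Pdgfra, Tcf21, Vim), beside 5.7% of all genes. Thy1, which encodes CD90, was at 75.1 to 109.8 CPM, whereas Ptprc (CD45) was at 1.64 to 3.14 CPM and Pecam1 (CD31) at 3.05 to 9.31 CPM. Of the markers of other cell types, 2 passed the quasi-likelihood test in Gata4 KD against control, Lrrn4 and Tnnt2, beside 0.38% of all genes. The 6 epicardial or mesothelial markers summed to 25.7 to 48.8 CPM in control and 9.39 to 17.3 CPM in Gata4 KD, largely through Lrrn4 (15.8 to 32.2 CPM in control and 2.11 to 2.73 CPM in Gata4 KD), which was lower (-3.38, SE 0.27, quasi-likelihood adjusted p = 0.00272). Of the 5 tested, Upk1b (-1.16) and Upk3b (-1.51) were below all controls without passing the quasi-likelihood test, though DESeq2 called both, and Wt1 (0.13) and Krt19 (0.35) overlapped. The 8 cardiomyocyte markers summed to 24.6 to 31.2 CPM in control and 8.92 to 9.84 CPM in Gata4 KD, nearly all of it Tnnt2 (-1.64, SE 0.13, quasi-likelihood adjusted p = 0.00272), with Nppa at 0 in all libraries and Myh6 and Myh7 under 0.1 CPM. Endothelial markers, Tek the most abundant, summed to 38.3 to 57.8 CPM in control and 40.0 to 58.2 CPM in Gata4 KD. Kdr was higher in Gata4 KD against Tbx20 KD (0.90, SE 0.13, quasi-likelihood adjusted p = 0.0258). That call was lost without any library but Gata4 KD replicate c and with the block. Against control Kdr was at 0.97 (SE 0.19, quasi-likelihood adjusted p = 0.0996), without overlap, and DESeq2 called it, beside 1.89% of all genes. Leukocyte markers (Lyz2 the most abundant) summed to 37.9 to 44.6 CPM in control and 24.8 to 40.7 CPM in Gata4 KD. Smooth muscle and pericyte markers (Notch3 the most abundant) summed to 24.8 to 35.9 CPM in control and 18.1 to 38.4 CPM in Gata4 KD. None of either list passed by the quasi-likelihood test. In Gata4 KD against control Csf1r was lower (-0.64, SE 0.17) and Rgs5 higher (0.93, SE 0.25), each without overlap. These, 1 of each list, had an unadjusted p under 0.05 and were called by DESeq2. Over all genes these shares were 8.54% and 1.89%. The part of these cells in the collagen values was not tested.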

How the data were processed

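RNA of 9 libraries was sequenced as 75-base single-end reads after poly(A) selection. The authors aligned stranded reads to GRCm38 with Bowtie2 through RSEM, per the study's methods, while the submitters' processing notes name Bowtie and build mm9; gene identifiers and guide positions match GRCm38. The authors deposited RSEM's expected counts for each gene as whole numbers, without normalization. Symbols, coordinates and transcript sequences were taken from GENCODE M21, and guide sequences from the study's supplement. RSEM shares reads that match several genes, and overlapping antisense genes were not separated further here.

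Each comparison was fitted on its 6 libraries with edgeR 4.0.16 in R 4.3.3 (filterByExpr, TMM factors, glmQLFit and glmQLFTest, no covariate), with Benjamini-Hochberg adjustment over all genes tested and a threshold of 0.05. The standard error is the log2 fold change divided by the root of F. Alternatives were DESeq2 1.42.0, scaling by library size alone, keeping every gene with a count, keeping genes above 1 CPM in 2 or more libraries, limma-voom (limma 3.58.1), fitting all 9 libraries together, a block for the replicate letter, and leaving out each library. In simulated counts with 200 genes changed 2-fold, for Gata4 KD against control over 14316 genes, 75.5% of these were called, and 6.21% of all calls fell on genes simulated with no change. The 9 genes differed by less in that comparison, with log2 fold changes from -0.51 (Col3a1) to 0.50 (Col2a1). The 75.5% therefore does not apply to them.

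The 9 genes, the gene lists and the tests were chosen with earlier results of these data known. Named were the 9 genes, the targets, Col24a1 and Col27a1, the genes of each pathway list that passed in any comparison and its 2 most abundant genes, the most abundant gene of each marker list, and the 3 genes most correlated with Col1a1 and with Col2a1. Other genes named were picked after their values were seen. A gene that this rule names is not reported here. Replicates differed by more than sampling noise (lowest chi-square per degree of freedom 6.2). No protein sequence was used here.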

Additional observations from a re-analysis of the deposited data

How the results depend on the processing

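For the 9 genes, 326 of 351 log2 fold changes under alternatives kept their direction and their side of the threshold. The count of the 9 passing became 1 with DESeq2 in Gata4 KD against control, and 0 to 3 with a library left out in Gata4 KD against Tbx20 KD. The count of all genes passing in Gata4 KD against control was 55, and 273 with DESeq2, 121 without the filter, 148 with all 9 libraries in one fit and 6 to 189 with a library left out. In Tbx20 KD against control it was 1, and 10, 2, 1 and 1 to 5. In Gata4 KD against Tbx20 KD it was 208, and 761, 324, 191 and 22 to 801. With the replicate letter as a block these counts were 5, 2 and 101, and no call among the 9 genes changed. Deviations of same-lettered libraries from their group means correlated at -0.17 to 0.255, and those of different-lettered libraries at -0.385 to 0.347. Pairing by letter was thus not seen, but 9 such pairs are too few to exclude it. Small differences changed sign: in Gata4 KD against control Col5a3 was 0.0042 with DESeq2 and -0.0644 to 0.084 with a library left out, and Col11a2 was -0.0542 to 0.113. In Tbx20 KD against control Col5a2 was 0.0085 with library size alone, 0.0047 without the filter, 0.0012 with limma-voom and 0.001 with the block, and with a library left out the ranges were -0.0392 to 0.0719 for Col5a2, -0.0941 to 0.0407 for Col1a1, -0.0429 to 0.12 for Col1a2, -0.0149 to 0.224 for Col3a1 and -0.111 to 0.0041 for Col5a1. The cause was not tested. Tbx20 passed in Tbx20 KD against control with DESeq2 (adjusted p = 3.18e-08) and without the filter (0.0318). Depth limits Col11a2 and Col24a1, at 20 to 57 counts per library.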

Other observations

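Within each of the 3 groups, the order of the replicates by Col3a1 was their order by Tbx20. In control the order from high to low was b, a, c for Tbx20 (1288, 1001 and 714 CPM) and for Col3a1 (3628, 3198 and 2671 CPM). In Gata4 KD it was c, a, b for Tbx20 (904, 669.8 and 518 CPM) and for Col3a1 (3188, 1837 and 1622 CPM). In Tbx20 KD it was c, b, a for Tbx20 (429, 427 and 321 CPM, with c and b nearly equal) and for Col3a1 (3833, 3538 and 2698 CPM). Col1a2, Col5a2 and Col5a3 had the same order in all 3 groups, making 4 of the 9 genes, and 3.28% of 14268 genes tested in every comparison had it. The 4 are not independent, since Col1a2, Col3a1 and Col5a2 varied together (r from 0.968 to 0.987). The shared order was looked for after the values were seen and was not tested.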
